A study of Mus musculus with 8 samples.

Results

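The transcripts described here are those of the 10 genes that load, form or restrain the MCM helicase at replication origins: Mcm2, Mcm3, Mcm4, Mcm5, Mcm6 and Mcm7, the 6 subunits of the helicase, and Mcm10, Cdc6, Cdt1 and Gmnn. They were chosen by name, with earlier results of these data known. All 10 were present among the 53697 genes of the count table and among the 18322 that were abundant enough to be tested. RNA came from tumor cells of 4 female mice on a C57BL/6 background, all of which carried the MMTV-PyMT transgene, in which the MMTV promoter drives the polyoma middle T oncogene in the mammary epithelium. In 2 PyMT-Dll1GFP mice, Dll1 expression was read from a GFP-IRES-Cre-ERT2 cassette knocked into Dll1. In 2 PyMT-Dll1mCh mice it was read from a BAC-based Dll1-mCherry transgene. The age of the mice is not given in the sources used here. Cells positive for CD45, CD31 or Ter119 were removed in the sort, and reporter fluorescence then separated the remaining tumor cells of each mouse into a Dll1+ and a Dll1- fraction, which gave 1 library each and 8 libraries in all. The reporter construct, the mouse line and any difference in handling between the lines cannot be told apart.

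Before a cell replicates its DNA, the origin recognition complex, Cdc6 and Cdt1 place MCM2-7 rings on origins in G1 phase, a step called licensing. In S phase the rings are activated with Cdc45, the GINS complex and Mcm10, and geminin, the product of Gmnn, binds Cdt1 so that an origin is not licensed again within the same cycle. The genes are transcribed mainly in cycling cells, and their products are widely used as markers of proliferative capacity, in breast tumors among others.

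The total count per library ranged from 27301396 to 123907626, and a member held between 141 and 18411 counts in a library. Values per library are given in CPM, the library's counts scaled to a common total after TMM normalization, a scale that corrects for the depth and composition of the library but not for transcript length. The sort was visible in Dll1 itself, the Notch ligand that both reporters follow. Dll1 was at 7.61 and 13.7 CPM in Dll1- cells and at 87.5 and 138 CPM in Dll1+ cells of the PyMT-Dll1GFP mice. In the PyMT-Dll1mCh mice it was at 34.7 and 50.3 CPM in Dll1- cells and at 203 and 250.2 CPM in Dll1+ cells. Dll1 was thus higher in the Dll1+ library of each mouse (log2 fold change 2.90 ± 0.24 SE, edgeR adjusted p = 0.00651).

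The members moved together in these cells, so their promoters were read for the elements best known at cell cycle genes: the E2F element of genes induced at the G1/S transition, and the CHR (cell cycle genes homology region) and CCAAT elements common at genes of later phases. The windows were the 300 bases from 250 before to 50 after each start in the RefSeq promoter table (GRCm38.p6), which held 8 of the 10 members, all but Mcm4 and Gmnn. An E2F match was any of TTTCCCGC, TTTCGCGC, TTTGCCGC or TTTGGCGC on either strand. A match stood in a window of 6 of the 8 members (Mcm3, Mcm5, Mcm6, Mcm7, Cdc6 and Cdt1) and of 2.6% of all 27025 genes (2.26% of all 32851 windows). The first match of each is shown within 30 bases, read 5′ to 3′ on the strand of the gene, with the match in capitals, because it stood in most of the members' windows and in few windows of other genes. In Mcm5 and Mcm6 the capitals cover a pair of matches on opposite strands that overlap.
Mcm3 (chr1:20820275-20820304, minus strand): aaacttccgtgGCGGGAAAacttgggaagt
Mcm5 (chr8:75109347-75109376, plus strand): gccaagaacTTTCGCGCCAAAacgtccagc
Mcm6 (chr1:128359795-128359824, minus strand): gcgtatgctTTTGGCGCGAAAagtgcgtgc
Mcm7 (chr5:138172030-138172059, minus strand): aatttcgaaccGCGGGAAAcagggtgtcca
Cdc6 (chr11:98908002-98908031, plus strand): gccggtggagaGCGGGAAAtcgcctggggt
Cdt1 (chr8:122568035-122568064, plus strand): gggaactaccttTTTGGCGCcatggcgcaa

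The CCAAT letters, searched on both strands, were found in the windows of 6 of the 8 members (Mcm2, Mcm3, Mcm5, Mcm6, Mcm7 and Mcm10) and of 41.1% of all genes (37.4% of all windows). The CHR letters TTTGAA were found in 1 of the 8, Mcm2, and in 20.2% of all genes (17.9% of all windows). The Mcm2 site is shown because Mcm2 had no E2F match.
Mcm2 (chr6:88898832-88898861, minus strand): gggctcagcctTTTGAAagctgtgggcggg
The matches describe letters in these windows and are not measured sites of binding. Mcm2 and Mcm10, whose windows held no E2F match, had log2 fold changes of -1.05 and -1.08 between Dll1+ and Dll1- cells, inside the range of -1.24 to -0.73 of the members with a match. The Mcm10 window ends in TTTGGCG, so a TTTGGCGC match that runs past its end would not have been seen. Whether the element bears on the change was not tested.

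All 10 members were lower in Dll1+ than in Dll1- cells over the 4 mice, by 1.66-fold to 2.36-fold (edgeR adjusted p from 0.00534 to 0.0188). Of all tested genes, 7.04% were called lower and 14.0% were called in either direction. The median log2 fold change was -0.95 over the members and -0.0007 over all tested genes. Each member was lower in the Dll1+ library in 4 of 4 mice, which was so for 19.9% of tested genes. Whether the Dll1+ and Dll1- libraries overlap is given below gene by gene, as a description. The share of all tested genes without such overlap was not counted. Since RNA was taken from sorted populations, fewer expressing cells and less RNA per cell cannot be told apart. The plot of member levels shows the 4 falling lines of each gene.

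**Figure D1:**
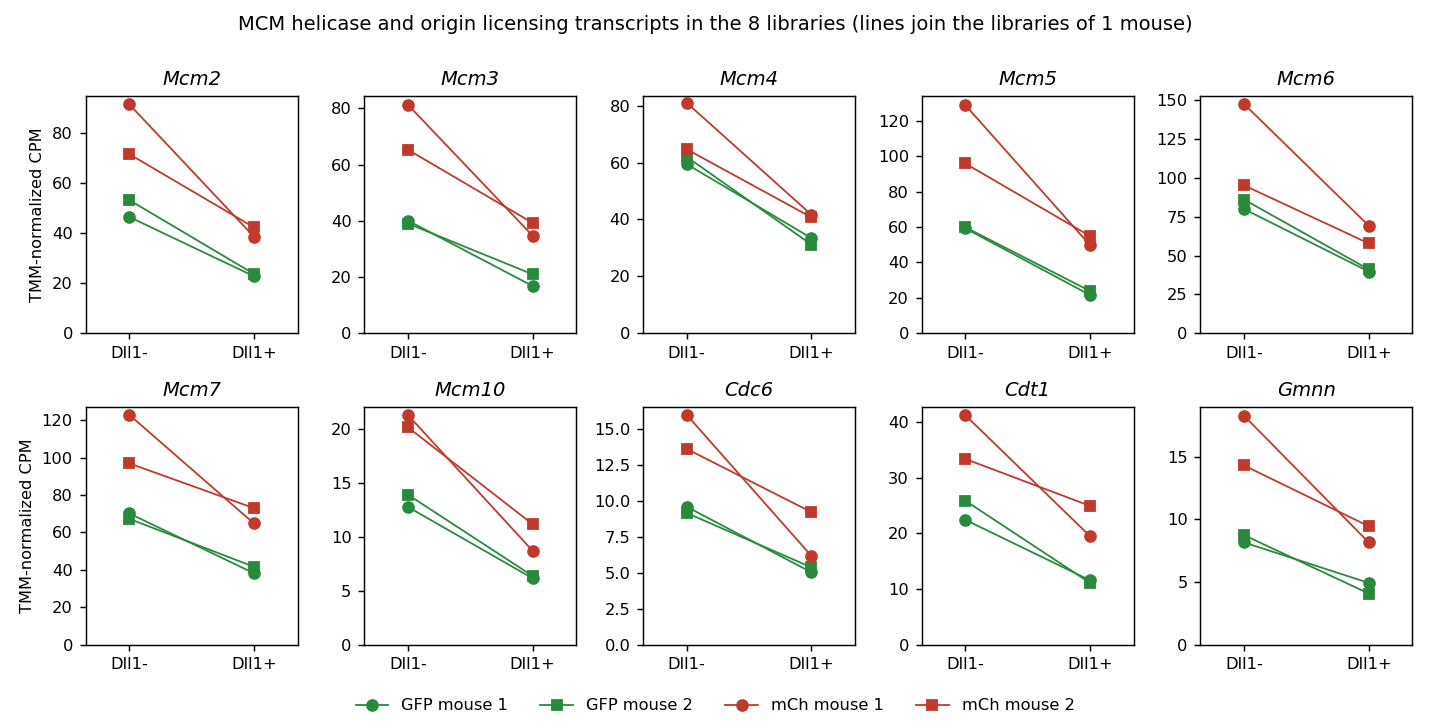
TMM-normalized CPM (vertical axes, linear and starting at 0) of the 10 members in the 8 libraries, with Dll1- on the left and Dll1+ on the right of each panel. Points are single libraries and lines join the 2 libraries of a mouse (green: PyMT-Dll1GFP, red: PyMT-Dll1mCh). All 40 lines fall, from up to 147 CPM for Mcm6, and the red points lie above the green ones within each fraction.

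Among the helicase subunits, Mcm5 (chr8:75109569-75128439, plus strand), which forms the Mcm2-Mcm5 gate of the ring with its neighbour subunit, had the largest change. Mcm5 was at 59.3 and 59.9 CPM in Dll1- cells and at 21.6 and 23.8 CPM in Dll1+ cells of PyMT-Dll1GFP mice 1 and 2. PyMT-Dll1mCh mice 1 and 2 had 129 and 95.9 CPM in Dll1- cells and 49.7 and 54.9 CPM in Dll1+ cells. Although the lines differed in level, the highest Dll1+ library lay below the lowest Dll1- library. With a log2 fold change of -1.24 ± 0.12 (SE, 4 mice), Mcm5 showed a 2.36-fold fall (edgeR adjusted p = 0.00645).

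Mcm2 (chr6:88883474-88898780, minus strand) encodes the other side of that gate and also binds histones H3 and H4. Dll1- cells held 46.4 and 53.1 CPM of Mcm2 in the PyMT-Dll1GFP mice and 91.3 and 71.4 CPM in the PyMT-Dll1mCh mice. In Dll1+ cells the values were 22.7 and 23.7 CPM and 38.5 and 42.2 CPM. The 4 Dll1+ libraries were all below the 4 Dll1- libraries. Mcm2 fell by 1.05 on the log2 scale (SE 0.092, edgeR adjusted p = 0.00534).

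Mcm3 (chr1:20802968-20820312, minus strand) encodes the subunit through which Cdc6 and the origin recognition complex first engage the ring. Its Dll1- libraries were at 40.1 and 39.1 CPM in the PyMT-Dll1GFP mice and at 81.4 and 65.3 CPM in the PyMT-Dll1mCh mice. The matching Dll1+ libraries were at 16.8 and 20.98 CPM and at 34.7 and 39.3 CPM. Within each line the fractions did not overlap, whereas across lines the highest Dll1+ library, of PyMT-Dll1mCh mouse 2, lay just above the lowest Dll1- library, of PyMT-Dll1GFP mouse 2. Mcm3 fell by 1.03 on the log2 scale (SE 0.10, edgeR adjusted p = 0.00645).

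Mcm4, Mcm6 and Mcm7 form the catalytic core of the ring. Mcm6 (chr1:128331590-128359664, minus strand) was at 79.9 and 86.0 CPM in Dll1- cells and 39.7 and 41.1 CPM in Dll1+ cells of the PyMT-Dll1GFP mice, and at 147 and 95.1 CPM against 69.1 and 57.8 CPM in the PyMT-Dll1mCh mice. Mcm4 (chr16:15623897-15637400, minus strand) was at 59.5 and 62.0 CPM against 33.4 and 31.2 CPM, and at 81.0 and 64.7 CPM against 41.7 and 40.7 CPM. In both genes the Dll1+ and Dll1- libraries were separated across the 4 mice. The log2 fold changes were -0.97 ± 0.077 for Mcm6 and -0.86 ± 0.072 for Mcm4 (SE, edgeR adjusted p = 0.00534 for both).

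Mcm7 (chr5:138164583-138172422, minus strand) had the smallest change of the 10. In Dll1- cells Mcm7 was at 70.1 and 67.2 CPM in the PyMT-Dll1GFP mice and at 123 and 96.9 CPM in the PyMT-Dll1mCh mice. In Dll1+ cells it was at 38.1 and 41.6 CPM and at 64.7 and 72.9 CPM. The fractions were separated within each line but overlapped across lines, since the Dll1+ library of PyMT-Dll1mCh mouse 2 exceeded both PyMT-Dll1GFP Dll1- libraries. The log2 fold change was -0.73 ± 0.095 (SE, edgeR adjusted p = 0.0109), a 1.66-fold fall. Exons of Ap4m1 and Cops6, on the opposite strand, overlap the ends of Mcm7. The library kit keeps the strand, while the strand setting used in the quantification is not given in the sources used here, and the share of Mcm7 reads that this could move was not tested.

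The loaders changed to a similar degree at lower levels. Cdc6 (chr11:98907801-98923940, plus strand), the ATPase that joins the origin recognition complex to recruit the ring, was at 9.59 and 9.15 CPM in Dll1- cells and 5.02 and 5.37 CPM in Dll1+ cells of the PyMT-Dll1GFP mice. The PyMT-Dll1mCh mice had 16.0 and 13.6 CPM against 6.17 and 9.21 CPM. Cdc6 had the widest error of the members (log2 fold change -0.91 ± 0.15 SE, edgeR adjusted p = 0.0188), and the Dll1+ library of PyMT-Dll1mCh mouse 2 stood between the 2 Dll1- libraries of the other line.

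Cdt1 (chr8:122568015-122573554, plus strand) delivers the ring to the origin and is destroyed once S phase begins. Libraries of Dll1- cells held 22.4 and 25.9 CPM in the PyMT-Dll1GFP mice and 41.2 and 33.4 CPM in the PyMT-Dll1mCh mice. Those of Dll1+ cells held 11.5 and 11.1 CPM and 19.5 and 24.9 CPM. The fall was again shallowest in PyMT-Dll1mCh mouse 2, whose Dll1+ library lay between the Dll1- libraries of the other line. Cdt1 fell by 0.92 on the log2 scale (SE 0.14, edgeR adjusted p = 0.0155).

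Gmnn (chr13:24751845-24761923, minus strand), the inhibitor, fell with the factor that it restrains. Gmnn was at 8.15 and 8.73 CPM in Dll1- cells and 4.92 and 4.07 CPM in Dll1+ cells of the PyMT-Dll1GFP mice, and at 18.3 and 14.3 CPM against 8.15 and 9.44 CPM in the PyMT-Dll1mCh mice. The Dll1+ library of PyMT-Dll1mCh mouse 2 again exceeded both Dll1- libraries of the other line. Gmnn fell by 0.90 on the log2 scale (SE 0.13, edgeR adjusted p = 0.0138). The within-mouse change in the log2 ratio of Cdt1 to Gmnn was -0.23 and -0.13 in the PyMT-Dll1GFP mice and 0.081 and 0.18 in the PyMT-Dll1mCh mice, with a mean of -0.025 (SD 0.19, n = 4). No shift of the ratio in either direction was detected (exact sign-flip permutation test, two-sided p = 0.875, where 4 mice cannot give less than 0.13). For Cdc6 to Gmnn the mean was -0.011 (SD 0.25, n = 4, the same exact test, p = 1).

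Mcm10 (chr2:4989714-5012791, minus strand), which acts after loading when the ring is activated, was at 12.8 and 13.9 CPM in Dll1- cells and 6.14 and 6.35 CPM in Dll1+ cells of the PyMT-Dll1GFP mice. In the PyMT-Dll1mCh mice the values were 21.3 and 20.1 CPM against 8.68 and 11.2 CPM. No Dll1+ library reached the lowest Dll1- library. The log2 fold change of -1.08 ± 0.10 (SE, edgeR adjusted p = 0.00633) was, among the members, exceeded in size by that of Mcm5.

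The calls over 4 mice rested on the mouse or line being in the model. With neither, edgeR called 0 of the 10 members (10 of 10 at an unadjusted p under 0.05) and 0 of all tested genes, and with the reporter line alone, a model chosen after the data were seen, it called 10. Leaving out PyMT-Dll1GFP mouse 1 or PyMT-Dll1mCh mouse 1 left 6 members called, without Mcm7, Cdc6, Cdt1 and Gmnn, leaving out PyMT-Dll1GFP mouse 2 left 7, and all 10 log2 fold changes stayed negative in each of these fits. Calls over all genes, in either direction, fell in the same fits from 2568 of 18322 to 433 of 19204 without PyMT-Dll1GFP mouse 1, 405 of 17740 without PyMT-Dll1mCh mouse 1 and 779 of 18708 without PyMT-Dll1GFP mouse 2.

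Taken line by line, 9 of 10 members were called lower in the PyMT-Dll1GFP mice (4.84% of tested genes were called lower) and 10 of 10 in the PyMT-Dll1mCh mice (6.25%). In the PyMT-Dll1GFP mice the log2 fold changes ran from -1.39 ± 0.15 for Mcm5 to -0.79 ± 0.14 for Mcm7 (SE). Cdc6, with -0.85 ± 0.22, missed the threshold there (edgeR adjusted p = 0.0681). In the PyMT-Dll1mCh mice the log2 fold changes ran from -1.09 ± 0.14 for Mcm5 to -0.67 ± 0.13 for Mcm7, and the highest edgeR adjusted p was 0.0487, for Cdt1. By point value, both lines thus placed Mcm5 first and Mcm7 last, but single mice did not all do so. In PyMT-Dll1GFP mouse 1, Gmnn fell less than Mcm7 (log2 differences -0.725 and -0.879). In PyMT-Dll1mCh mouse 2, Mcm10 fell more than Mcm5 (-0.851 and -0.805). Mcm5 fell most and Mcm7 least in PyMT-Dll1GFP mouse 2 and PyMT-Dll1mCh mouse 1.

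The calls within a line depended on single mice and on the fit. Without either PyMT-Dll1GFP mouse, 0 of 10 members were called by edgeR in the remaining one, with 9 (mouse 1 left out) and 8 (mouse 2 left out) at an unadjusted p under 0.05. Of all genes, 20 of 19204 and 2 of 18708 were then called, against 1673 of 18322 with both mice. In the PyMT-Dll1mCh mice 6 were called without PyMT-Dll1mCh mouse 1 or either PyMT-Dll1GFP mouse (1315, 1069 and 905 of all genes, for PyMT-Dll1mCh mouse 1 and PyMT-Dll1GFP mice 1 and 2, against 2154 with all mice). There were 5 without the mouse in the model (212 of all genes), and 0 when that line was fitted alone with 1 residual degree of freedom, where edgeR called 0 of all genes and had 10 members at an unadjusted p under 0.05.

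**Figure D2:**
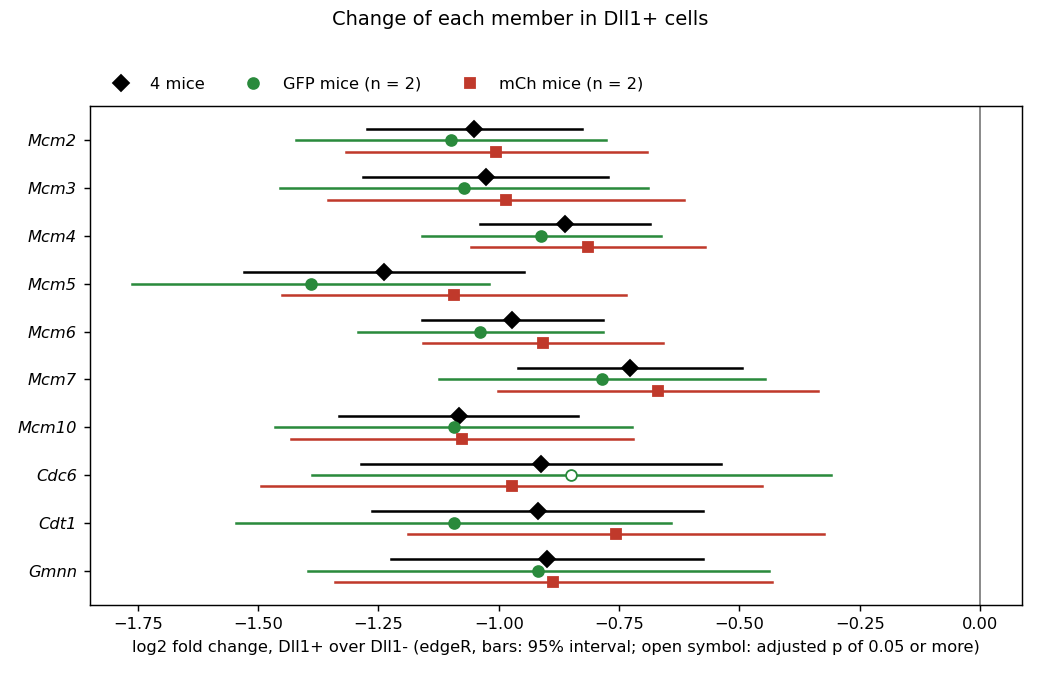
Log2 fold change of each member, Dll1+ over Dll1-, from the edgeR fits over 4 mice (black) and for the 2 mice of each line (green and red), with 95% intervals as bars and an open symbol where the adjusted p is 0.05 or more. All 30 intervals lie below 0, the one open symbol is Cdc6 in the PyMT-Dll1GFP mice, and the intervals of the lines overlap for each gene.

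A difference between the lines in the size of the fall was not detected for any member. The difference in log2 fold change, PyMT-Dll1GFP minus PyMT-Dll1mCh, was called by edgeR for 0 of 10 members (adjusted p from 0.609 to 0.986, 0 at an unadjusted p under 0.05, and 0 called by DESeq2), beside 0.0710% of all tested genes. It was -0.34 ± 0.25 (SE) for Cdt1, with a 95% interval from -0.96 to 0.28. For Mcm5 it was -0.30 ± 0.20, with an interval from -0.81 to 0.21. The narrowest interval was that of Mcm4, from -0.44 to 0.25, and the widest that of Cdc6, from -0.62 to 0.87.

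Among the 4 mice, all 10 members had their smallest fall in PyMT-Dll1mCh mouse 2. The share of all tested genes that did so was not counted. Of the general proliferation markers, all but Tyms did so too, and the rise of Dll1 was smallest there (log2 difference 2.31). Dixon's outlier test flagged no member in that mouse. The median log2 difference over the members, Dll1+ minus Dll1-, was -0.69 in that mouse, against -0.98 and -1.08 in the PyMT-Dll1GFP mice and -1.20 in PyMT-Dll1mCh mouse 1. In that mouse the differences ran from -0.41 for Mcm7 to -0.85 for Mcm10, while in the other mouse of the line they ran from -0.92 for Mcm7 to -1.37 for Mcm5. With PyMT-Dll1mCh mouse 2 left out, 10 of 10 members were called over the remaining 3 mice.

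Markers of cells other than tumor epithelium also differed between the libraries of the PyMT-Dll1mCh mice. The summed level of 6 fibroblast markers was 13296 CPM in the Dll1- library and 2252 CPM in the Dll1+ library of PyMT-Dll1mCh mouse 2, and 5103 against 2198 CPM in mouse 1. In the PyMT-Dll1GFP mice it was between 692 and 804 CPM in all 4 libraries. The summed level of the members in those mice was 408 and 425 CPM in Dll1- cells and no more than 209 CPM in Dll1+ cells. The 6 immune markers summed to 306 to 343 CPM in Dll1- and 138 to 157 CPM in Dll1+ cells of the PyMT-Dll1mCh mice, and to 58.2 to 78.4 CPM in the PyMT-Dll1GFP mice. For 4 endothelial markers the sums were 119 to 270 CPM, 65.4 to 68.7 CPM and 39.6 to 43.2 CPM in the same order. The 4 red blood cell markers summed to 52.8 to 108 CPM, 22.4 to 39.8 CPM and 3.66 to 10.02 CPM.

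In the PyMT-Dll1mCh mice, 4 of 5 tested immune, 1 of 4 endothelial, 3 of 6 fibroblast and 2 of 3 tested red blood cell markers were called lower in Dll1+ cells by edgeR, beside 6.25% of all tested genes. In the PyMT-Dll1GFP mice, 1 of 3 tested red blood cell markers, Alas2, was called lower and no immune, endothelial or fibroblast marker, beside 4.84% of all tested genes. Over the 4 mice Hba-a1, of red blood cells, was called lower. The part of these cells in the members' change was not tested in either line. The 7 epithelial markers summed to between 4799 and 8843 CPM in all libraries, and 1 of them, Krt5, a basal keratin, was called higher in Dll1+ cells over the 4 mice (log2 fold change 2.77). Within the lines, Krt14, also a basal keratin, was called higher in the PyMT-Dll1mCh mice, and Krt19 was called lower in the PyMT-Dll1GFP mice.

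**Figure D3:**
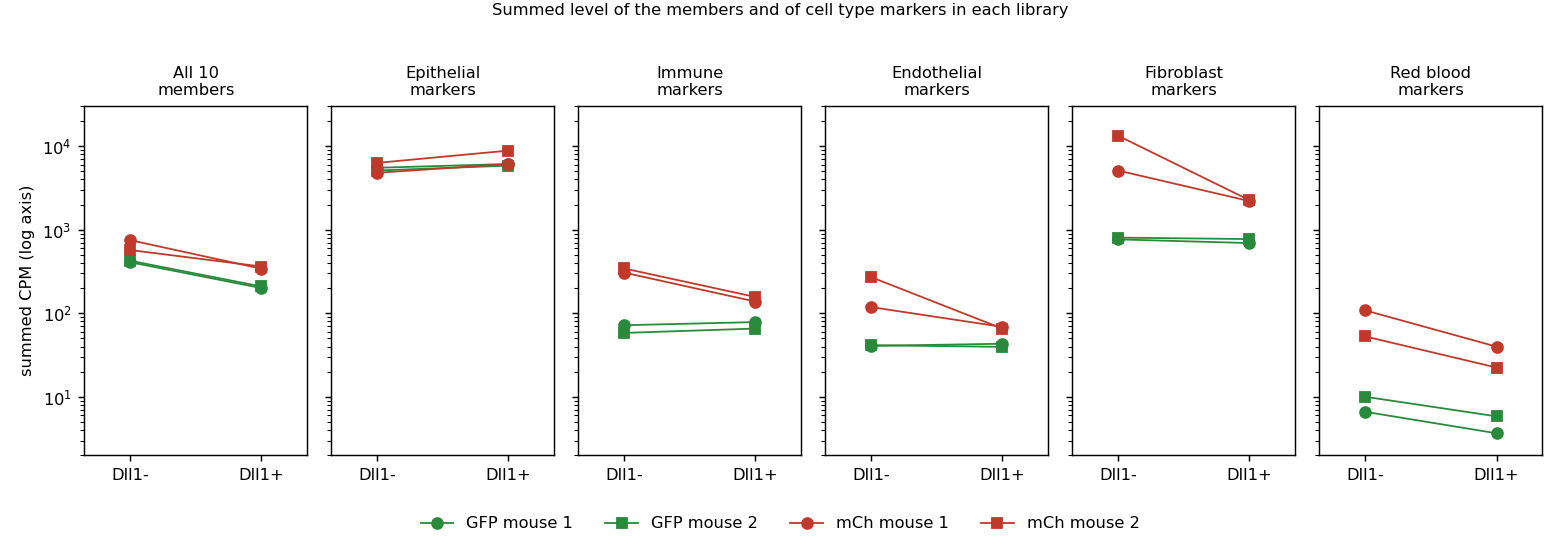
Summed CPM (shared vertical axis, log scale) of the 10 members and of 5 marker lists in each library, with lines joining the 2 libraries of a mouse. Members fall in all 4 mice, while fibroblast markers fall from 13296 and 5103 CPM to 2252 and 2198 CPM in the PyMT-Dll1mCh mice and stay between 692 and 804 CPM in the PyMT-Dll1GFP mice.

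Between the lines, the members were higher in the PyMT-Dll1mCh than in the PyMT-Dll1GFP mice within each fraction. In Dll1- cells 7 of 10 were called higher by edgeR (18.7% of tested genes), and in Dll1+ cells 7 of 10 (15.2%), and Mcm4, Mcm6 and Cdc6 missed the threshold in both. The libraries of the lines did not overlap for any of the 10 members in Dll1- cells, which held for 35.7% of tested genes with PyMT-Dll1mCh higher, nor in Dll1+ cells (36.8%). In Dll1- cells the log2 differences ran from 0.26 ± 0.12 (SE) for Mcm4 to 0.95 ± 0.19 for Gmnn. In Dll1+ cells they ran from 0.35 ± 0.12 for Mcm4 to 1.20 ± 0.15 for Mcm5. The medians of 0.67 and 0.79 over the members compare with 0.010 and 0.066 over all tested genes.

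The highest level of each of the 10 members was in the Dll1- library of PyMT-Dll1mCh mouse 1, which was also the deepest library. Marker sums were higher in this line as well, as given above, and in its Dll1- cells 5 of 5 tested immune, 4 of 4 endothelial and 6 of 6 fibroblast markers were called higher by edgeR. In its Dll1+ cells 3 of 5 immune, 0 of 4 endothelial (0 at an unadjusted p under 0.05 and 0 by DESeq2, with positive log2 differences in all 4) and 5 of 6 fibroblast markers were called higher, beside 7 of 10 members. The part of the other cell types and of depth in the line difference was not tested. Without either PyMT-Dll1GFP mouse, edgeR called 0 members and 0 genes of all tested in each fraction. At an unadjusted p under 0.05 there were then 5 and 7 members in Dll1- cells (mouse 1 and mouse 2 left out) and 6 and 6 in Dll1+ cells.

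Levels of different members can be set side by side once divided by transcript length. On the scale of CPM per kb of the longest principal transcript, the mean level in Dll1- cells was 35.1 ± 10.6 for Mcm6, 30.2 ± 8.80 for Mcm7, 25.4 ± 9.85 for Mcm5, 19.5 ± 5.98 for Mcm2, 18.6 ± 6.78 for Mcm3 and 18.6 ± 2.71 for Mcm4 (SD, n = 4). The other members were lower, with 14.0 ± 3.82 CPM per kb for Cdt1, 10.97 ± 4.27 for Gmnn, 4.72 ± 1.28 for Cdc6 and 3.50 ± 0.89 for Mcm10. In Dll1+ cells Mcm7 came to 18.3 ± 5.78 CPM per kb, Mcm6 to 17.8 ± 4.85, Mcm5 to 11.1 ± 5.09, and Mcm10 to 1.66 ± 0.48. The order Gmnn, Cdc6, Mcm10 closed the list in all 8 libraries. Among Mcm2, Mcm3 and Mcm4 the order was Mcm4, Mcm2, Mcm3 in all PyMT-Dll1GFP libraries. It was Mcm3, Mcm2, Mcm4 in the libraries of PyMT-Dll1mCh mouse 2 and differed between the fractions of PyMT-Dll1mCh mouse 1. Mcm7 stood above Mcm6 in PyMT-Dll1mCh mouse 2 only, so neither order held in all mice.

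As a share of the summed per-kb level of the 6 subunits, Mcm6 and Mcm7 were the top pair in all 8 libraries. The share of Mcm7 was 20.5% ± 0.78 in Dll1- cells and 24.04% ± 0.94 in Dll1+ cells (SD over 4 mice), with ranges of 19.6% to 21.2% and 23.1% to 25.2% that do not overlap. Since Mcm7 had the smallest fall of the subunits over the same mice, this shift restates that fall and is given with no test. The share of Mcm5 was 16.9% ± 1.70 in Dll1- and 14.0% ± 2.43 in Dll1+ cells. Mcm6 held 23.9% ± 1.90 and 23.7% ± 2.26, and the shares of Mcm2, Mcm3 and Mcm4 stayed between 10.2% and 17.1%. Mcm5 against Mcm7, a pair chosen after the values were seen, changed by -0.58 and -0.63 in the PyMT-Dll1GFP mice and by -0.45 and -0.39 in the PyMT-Dll1mCh mice on the log2 scale, Dll1+ minus Dll1-. The mean was -0.51 (SD 0.11, n = 4), given as a description with no test, since these subunits were picked for the largest and the smallest fall in the same mice.

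**Figure D4:**
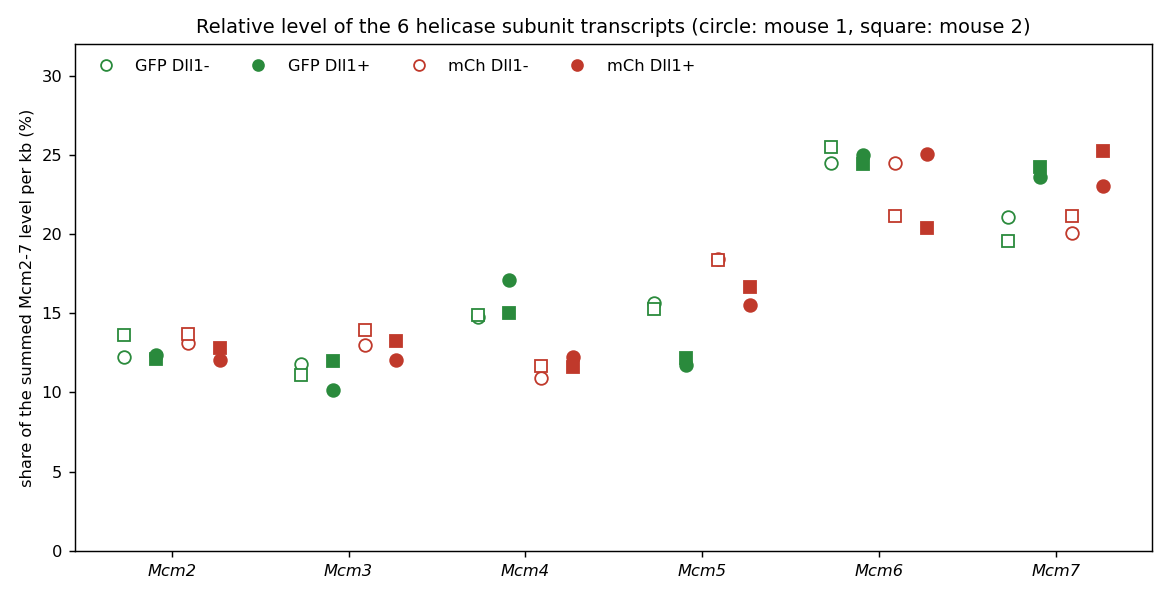
Share of each helicase subunit in the summed Mcm2-7 level per kb (vertical axis, percent, from 0) in each library, with open symbols for Dll1- and filled symbols for Dll1+ cells, green for PyMT-Dll1GFP and red for PyMT-Dll1mCh. Mcm6 and Mcm7 lie highest, between 19.6% and 25.5%, and the filled Mcm7 symbols all lie above the open ones.

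Across the 8 libraries, the log2 CPM of the subunits followed each other closely, with pairwise Pearson correlations from 0.892 to 0.995, as did the other members with the mean of the 6 subunits (0.978 for Mcm10, 0.962 for Cdc6, 0.982 for Cdt1 and 0.971 for Gmnn). These are descriptions without a test, since the libraries share mice and fall into the same 4 groups. Outside the members, the tested genes with the highest correlation to the mean of the subunits included Uhrf1, which directs maintenance DNA methylation (0.997), the mitotic kinase gene Plk1 (0.994), Gart of purine synthesis (0.994) and Cenpa, the centromeric histone (0.994). Uhrf1 was at 60.9 and 57.5 CPM in Dll1- and 23.4 and 26.3 CPM in Dll1+ cells of the PyMT-Dll1GFP mice, and at 128 and 86.6 CPM against 50.3 and 48.5 CPM in the PyMT-Dll1mCh mice.

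Genes that act around the members were read by role from fixed lists, chosen with earlier results of these data known. They were tested in the same edgeR fit over 4 mice, which called 7.04% of all tested genes lower and 14.0% in either direction. The origin recognition complex, which marks the origins and precedes the members, was called for 0 of 6 genes, with 3 lower and 2 higher at an unadjusted p under 0.05 and 3 called lower by DESeq2. Its median log2 fold change was -0.15. Orc1 was the member of the complex with the largest value, -0.99 ± 0.26 (SE, edgeR adjusted p = 0.0545), and was lower in 4 of 4 mice, from 2.93 to 0.837 CPM and from 2.39 to 1.61 CPM in the PyMT-Dll1GFP mice, and from 4.45 to 2.00 CPM and from 3.96 to 2.73 CPM in the PyMT-Dll1mCh mice. Orc2 and Orc6 had -0.26 ± 0.068 and -0.29 ± 0.081 (edgeR adjusted p = 0.0539 and 0.0646). The summed CPM of the 6 genes lay between 120 and 133 in all 8 libraries.

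Downstream of loading, 10 of 13 genes of helicase activation and origin firing were called lower, beside 7.04% of all tested genes, with a median of -0.72. They included Cdc45, part of the active helicase (-1.06 ± 0.12 SE, edgeR adjusted p = 0.00798), Gins2 of the GINS complex (-0.65 ± 0.079, 0.00917) and Topbp1, a firing factor (-0.63 ± 0.075, 0.00879). Of the replication fork genes, 20 of 23 were called lower, with a median of -0.53, among them the primase subunit gene Prim1 (-0.79 ± 0.082, edgeR adjusted p = 0.00671), the flap endonuclease gene Fen1 (-0.87 ± 0.092, 0.00679) and Pole, of the leading-strand polymerase (-0.82 ± 0.088, 0.00693). As were the calls over all genes, these counts were lower when mice were left out: 1 of 13 and 5 of 23 without PyMT-Dll1GFP mouse 1, 5 of 13 and 11 of 23 without PyMT-Dll1GFP mouse 2, and, by edgeR, 0 of 13 (10 at an unadjusted p under 0.05) and 4 of 23 without PyMT-Dll1mCh mouse 1.

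Genes for the turnover of licensing factors were called lower for 4 of 10, beside 7.04% of all tested genes, with a median of -0.24. Skp2, a ubiquitin ligase subunit that recognises phosphorylated Cdt1, had -1.03 ± 0.14 (SE, edgeR adjusted p = 0.0121), Dtl, the CRL4 substrate receptor for Cdt1, -0.75 ± 0.15 (0.0309), and Fzr1, an activator of the anaphase-promoting complex, -0.30 ± 0.065 (0.0342). Without PyMT-Dll1GFP mouse 1, or without PyMT-Dll1mCh mouse 1, edgeR called 0 of the 10, with 5 lower at an unadjusted p under 0.05 each time (DESeq2 on all 4 mice called 6), and without PyMT-Dll1GFP mouse 2 it called 1. Of the MCM relatives outside the loaded ring, Mcm8, which acts in recombination, was just past the threshold (-0.54 ± 0.13, edgeR adjusted p = 0.0496), a call lost when any 1 of the 4 mice was left out. Its partner gene Mcm9 (0.17 ± 0.090, 0.241) and Mcmbp, for the MCM binding protein (-0.19 ± 0.056, 0.0761), were not. All 8 general proliferation markers were called lower, beside the same 7.04% of all tested genes, with a median of -1.11. They were led by Rrm2 of deoxynucleotide synthesis (-1.52 ± 0.076, edgeR adjusted p = 0.00534), the cyclin gene Ccnb1 (-1.33 ± 0.12, 0.00534) and the kinase gene Cdk1 (-1.15 ± 0.10, 0.00585). Whether the members changed by more or less than these lists was not tested.

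**Figure D5:**
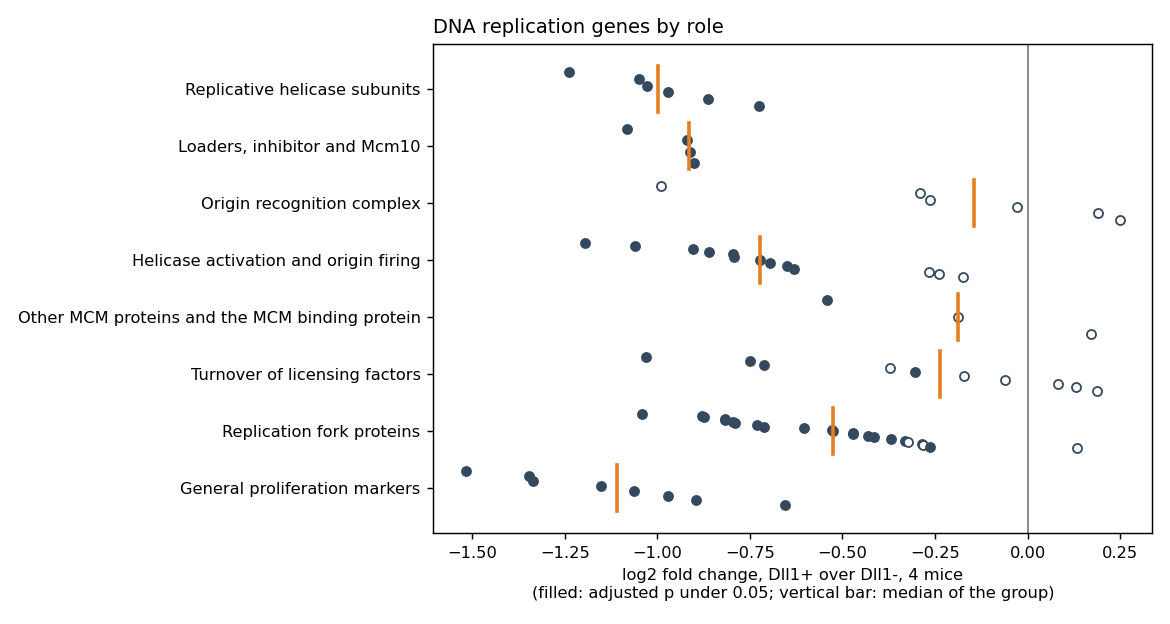
Log2 fold change over 4 mice, Dll1+ over Dll1- (horizontal axis), of the genes of each role, with filled points for an edgeR adjusted p under 0.05 and a vertical bar at the median of the role. The helicase subunits and Cdc6, Cdt1, Gmnn and Mcm10 (median -0.92) are all filled, the 6 genes of the origin recognition complex are all open with a median of -0.15, and the proliferation markers have a median of -1.11.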

How the data were processed

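The authors quantified reads with Salmon on mouse transcripts (GENCODE M20, GRCm38.p6) and collapsed them by gene with tximport. The deposited table holds estimated counts as whole numbers without normalization (tool versions are not given in the sources used here). Libraries were grouped by reporter and Dll1 label, and paired by the mouse number in the labels. Deviations from the group means correlated between the libraries of a mouse by 0.554 in the PyMT-Dll1mCh and -0.047 in the PyMT-Dll1GFP mice.

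The test was edgeR's robust quasi-likelihood F test (edgeR 4.0.16, R 4.3.3, TMM) on the 18322 genes passing filterByExpr: Dll1 status with mouse as a block, following the model in the study's methods, the same with a Dll1 effect per reporter, and 4 groups for the lines. P values were Benjamini-Hochberg adjusted over all tested genes (threshold 0.05). Standard errors are the log2 fold change over the root of F. Log2 CPM used a prior count of 2. Positions and transcript lengths came from GENCODE M21 (GRCm38). Alternatives were RLE factors, DESeq2 1.42.0, other filters, no block, limma 3.58.1 with mouse as a random block, each reporter alone and each mouse left out. Scripts were tested on simulated data. The members and lists were chosen with earlier results of these data known. Genes named outside the members are Dll1, annotated neighbours, the 3 lowest p of each list and the 5 genes most like the subunits. Some genes that these rules would name are not reported here. A level of 3 counts corresponds to 0.0240 to 0.105 CPM, depending on the library.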

Additional observations from a re-analysis of the deposited data

How the results depend on the processing

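RLE factors, DESeq2 and either filter kept 10 of 10 members called for Dll1+ against Dll1- over the 4 mice, 9 or 10 in the PyMT-Dll1GFP mice, 10 in the PyMT-Dll1mCh mice, and 7 to 9 between the lines. No member changed sign in these comparisons under any setting. Over 4 mice, 10 members were called, 0 without the replicate block and 6 to 10 with 1 mouse left out. In the PyMT-Dll1GFP mice 9 were called, 7 without the block and 0 to 10 with 1 mouse left out. In the PyMT-Dll1mCh mice 10 were called, 5 without the block, 0 with that reporter fitted alone and 6 to 10 with 1 mouse left out. Between the lines 7 were called in each fraction, 6 with the replicate block of limma, where mouse was a random term (correlation 0.448), and 0 to 10 in Dll1- and 0 to 9 in Dll1+ cells with 1 mouse left out. Calls over all genes for Dll1+ against Dll1- ranged from 0 without the block to 4362 with DESeq2, against 2568. Fits with 1 mouse in a line assume that it varies like the other line. The cause of these losses was not tested.

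The difference between the lines was called for 0 members under all settings (edgeR, and DESeq2), with 0 to 3 at an unadjusted p under 0.05, but its sign was not stable. For Mcm10 it was 0.013 with RLE factors, 0.013 with DESeq2 and 0.010 with no filter, against -0.017. With 1 mouse left out it ranged from -0.31 to 0.19 for Mcm2, -0.30 to 0.20 for Mcm3, -0.21 to 0.087 for Mcm4, -0.55 to 0.022 for Mcm5, -0.29 to 0.093 for Mcm6, -0.34 to 0.18 for Mcm7, -0.21 to 0.24 for Mcm10, -0.25 to 0.56 for Cdc6, -0.64 to 0.027 for Cdt1 and -0.29 to 0.29 for Gmnn. For each member the lowest value came without PyMT-Dll1mCh mouse 1 and the highest without PyMT-Dll1mCh mouse 2. The mean change of the Cdt1 to Gmnn ratio ranged from -0.092 to 0.043 with 1 mouse left out, 0.043 and 0.0090 without PyMT-Dll1GFP mouse 1 and mouse 2.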

Other observations

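The 4 tested neighbours of members in the annotation missed the threshold between Dll1+ and Dll1- cells. Prkdc, the gene of the catalytic subunit of DNA-dependent protein kinase, starts 466 bases from Mcm4 in the opposite direction. It was at 17.9 and 17.9 CPM in Dll1- and 12.7 and 14.0 CPM in Dll1+ cells of the PyMT-Dll1GFP mice, and at 10.9 and 8.22 CPM against 8.81 and 7.12 CPM in the PyMT-Dll1mCh mice. The log2 fold change was -0.34 ± 0.089 (SE, edgeR adjusted p = 0.0551). Between the lines Prkdc was lower in the PyMT-Dll1mCh mice, by -0.90 ± 0.19 in Dll1- cells (edgeR adjusted p = 0.0111) and -0.74 ± 0.19 in Dll1+ cells (0.0263), where Mcm4 had 0.26 and 0.35. Ap4m1 and Cops6, which overlap Mcm7 by 421 and 64 bases on the opposite strand, had -0.07 ± 0.097 and -0.08 ± 0.055 (edgeR adjusted p = 0.658 and 0.339). Gm20388, whose span covers Cdt1 without sharing an exon, had 0.20 ± 0.077 (0.135). The hairpin entries of Mir106b, Mir93 and Mir25 within Mcm7 held at most 1 count in a library and were not tested.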
